A study of Mus musculus with 16 samples.

Results

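Respiratory complexes II, III and IV and the ATP synthase, complex V, were examined through the nuclear genes that encode their subunits. The genes were chosen by name, as those whose only symbol in the platform annotation starts with Sdha to Sdhd, Uqcr, Cyc1, Cox4 to Cox8 or Atp5. Of 18168 genes measured, 51 met this rule, and they rested on 98 probe sets. They comprised 4 subunit genes of complex II, 9 of complex III, 17 of complex IV and 17 of complex V. The 17 of complex IV include, by its name, Cox7a2l, which encodes a factor that joins complexes III and IV. The remaining 4, Sdhaf1 to Sdhaf4, begin with the same letters but encode assembly factors of complex II, and they are described as such. Brain tissue came from mice labelled as overexpressing mutant Twinkle, the helicase that unwinds mitochondrial DNA during its replication, and from wild-type mice. Cerebellum and hippocampus were each profiled on 4 arrays per genotype, 16 arrays in all. Mutants were 24, 24, 21 and 21 months old in order of replicate number, and wild types 26, 24, 21 and 23 months. Not given in the sources used here were the promoter of the transgene, the strain and the sex of the mice. The labels call the arrays of a group biological replicates but do not tie a cerebellum to the hippocampus of its mouse, and the p-values express only how far these arrays scattered.

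Complex II, succinate dehydrogenase, belongs to the citric acid cycle as well as to the respiratory chain, and all its subunits are nuclear-encoded. Complex III passes electrons from ubiquinol to cytochrome c, complex IV passes them on to oxygen, and both pump protons across the inner mitochondrial membrane. Complex V lets protons flow back and uses that flow to make ATP. Complexes III, IV and V each contain subunits encoded by mitochondrial DNA beside the nuclear ones, and their assembly therefore draws on both genomes. Deletor mice, which carry mutant Twinkle, are known for deletions of mitochondrial DNA that build up with age and for cells that lack cytochrome c oxidase activity in muscle and in some neurons.

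The values are relative. Each is a difference on a log scale, taken as log2, from the median array of its own region, so no expression level is left and genes cannot be ranked by abundance. A difference below is always mutant minus wild type on that log2 scale, with its standard error (SE), and group values are mean ± SD with n = 4. The centring also removes any check of a tissue label by the level of its markers. It leaves contrasts among arrays of a region. On wild-type hippocampus replicate 1 the 6 measured markers of cerebellar granule neurons averaged 2.81, with Gabra6, a receptor subunit of those neurons, at 6.28, and mutant hippocampus replicates 1 and 3 averaged 1.07 and 0.43. The 7 measured markers of choroid plexus, the tissue that secretes cerebrospinal fluid, averaged 2.19 on mutant hippocampus replicate 4 and 0.98 on wild-type hippocampus replicate 1. In the cerebellum they averaged -1.46 on mutant replicate 4 and 0.66 on wild-type replicate 1. On mutant cerebellum replicate 2 the 4 measured markers of pyramidal neurons averaged 0.82. Spink8 stood at 3.24 there and the others between -0.20 and 0.13. The 5 measured markers of microglia averaged 0.35 on that array. The hippocampus arrays were assigned by title, source and tissue entry, although their free description says cerebellum. Twnk, the mouse gene for Twinkle, differed by 0.06 (SE 0.05) in the cerebellum and by 0.06 (SE 0.05) in the hippocampus, with limma adjusted p = 0.915 and 0.766. It lay between -0.01 and 0.11 on the 8 mutant arrays and between -0.15 and 0.05 on the 8 wild-type arrays. Whether its probe set matches the transcript of the transgene is not given in the sources used here, so this is no check of the labels, and mutant and wild type mean the labels' assignment throughout.

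Nuclear respiratory genes are textbook targets of NRF1 and of the ETS factor GABP. The 250 bases upstream of the annotated start were therefore read for 39 of the 51 genes from RefSeq, mouse build GRCm38.p6, on both strands. The NRF1 core GCATGCGC was found upstream of 5 of 39 genes (12.8%), namely Atp5g2, Atp5k, Atp5l, Cox6a1 and Sdhb, against 2.56% of 27025 genes. For these motifs, all genes means the 27025 with a promoter entry and not the 18168 measured. The ETS core CCGGAAG was found upstream of 11 of 39 (28.2%), against 7.83% of all genes. These 11 were Atp5e, Atp5h, Atp5j, Atp5l, Cox6a1, Cox6b1, Sdhaf2, Sdhaf3, Sdhd, Uqcr11 and Uqcrh. A TATAAA box was found upstream of 3 of 39 (7.69%), Atp5l, Atp5md and Cox7b2, against 14.3% of all genes. A match describes the letters and shows neither binding nor an effect. The 100 bases just upstream of the start are printed for 5 genes that recur below and hold such a match, 5′ to 3′ on the gene's strand, with the NRF1 core or the ETS core in capitals on either strand. In Atp5k the capitals hold the NRF1 core on each strand, overlapping. The stretches lie at chr5:108434400-108434499 for Atp5k, at chr4:140961171-140961270 for Sdhb and at chr9:50603850-50603949 for Sdhd. Those of Uqcrh and Cox6a1 lie at chr4:116075071-116075170 and chr5:115348959-115349058. Sdhb lies on the plus strand and the other 4 on the minus strand.
Atp5k, minus strand, NRF1 core: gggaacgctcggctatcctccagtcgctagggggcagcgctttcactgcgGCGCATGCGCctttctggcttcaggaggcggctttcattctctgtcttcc
Sdhb, plus strand, NRF1 core: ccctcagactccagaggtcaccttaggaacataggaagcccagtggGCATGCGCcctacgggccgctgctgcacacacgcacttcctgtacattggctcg
Sdhd, minus strand, ETS core: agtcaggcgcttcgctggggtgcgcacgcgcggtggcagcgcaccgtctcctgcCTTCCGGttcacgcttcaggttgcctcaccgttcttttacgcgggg
Uqcrh, minus strand, ETS core: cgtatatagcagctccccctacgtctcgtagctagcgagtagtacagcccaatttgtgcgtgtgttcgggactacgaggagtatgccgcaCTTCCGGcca
Cox6a1, minus strand, ETS core: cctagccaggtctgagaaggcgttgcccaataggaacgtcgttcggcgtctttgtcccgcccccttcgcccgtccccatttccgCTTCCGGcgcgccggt

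No gene of complexes II to V differed between the genotypes at a limma adjusted p below 0.05 in either region, in the average of the regions or in the difference between them. None of the 18168 genes did either, so the share called was 0.0% in each comparison. The smallest limma adjusted p over all genes was 0.884 for cerebellum, 0.0571 for hippocampus, 0.511 for the average and 0.671 for the difference between regions. At an unadjusted p below 0.05, limma gave 979 genes for cerebellum, 1459 for hippocampus, 1546 for the average and 972 for the difference between regions. The differences of the 51 genes were small. They ranged from -0.09 to 0.31 in the cerebellum and from -0.11 to 0.32 in the hippocampus. A 95% interval lay wholly within 0.25 of 0, a change of at most 18.9% upward, for 40 of 51 genes (78.4%) in the cerebellum and 34 of 51 (66.7%) in the hippocampus, against 63.4% and 60.9% of all genes.

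**Figure D1:**
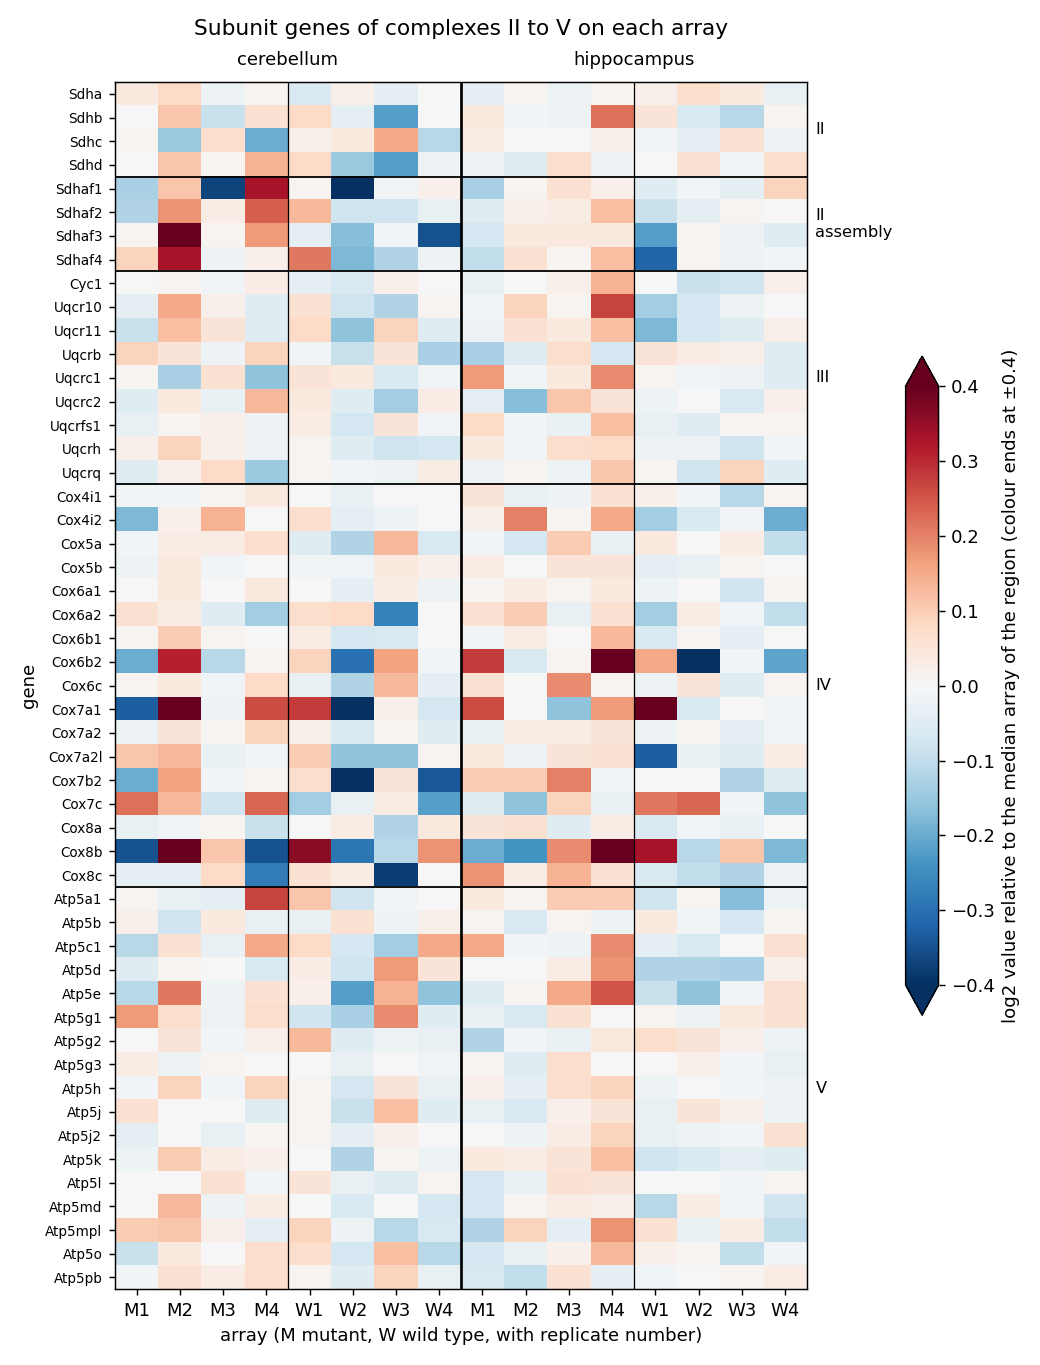
Value of each of the 51 genes (rows, grouped by complex) on each of the 16 arrays (columns, M mutant and W wild type with replicate number), as log2 relative to the median array of the region, with colour ending at ±0.4. Most cells are pale, deep colours gather in the complex II assembly rows and in a few complex IV rows such as Cox7a1, Cox7b2 and Cox8b, and the column of wild-type cerebellum replicate 2 is mostly blue.

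Most of the small differences lay above 0. In the cerebellum 39 of 51 genes were above 0 (76.5%), with a median of 0.041, against 53.6% of all genes and a median of 0.007. In the hippocampus 40 of 51 were above 0 (78.4%), with a median of 0.047, against 58.9% and 0.02. The medians thus came to a few hundredths of a log2 unit, and these counts are descriptions, set beside all genes without a test. With array medians subtracted the counts were 39 and 37, and with quantile normalization 36 and 39. The counts moved with single arrays, from 33 without wild-type cerebellum replicate 2 to 43 without wild-type cerebellum replicate 1, and from 34 without mutant hippocampus replicate 4 to 43 without mutant hippocampus replicate 2.

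**Figure D2:**
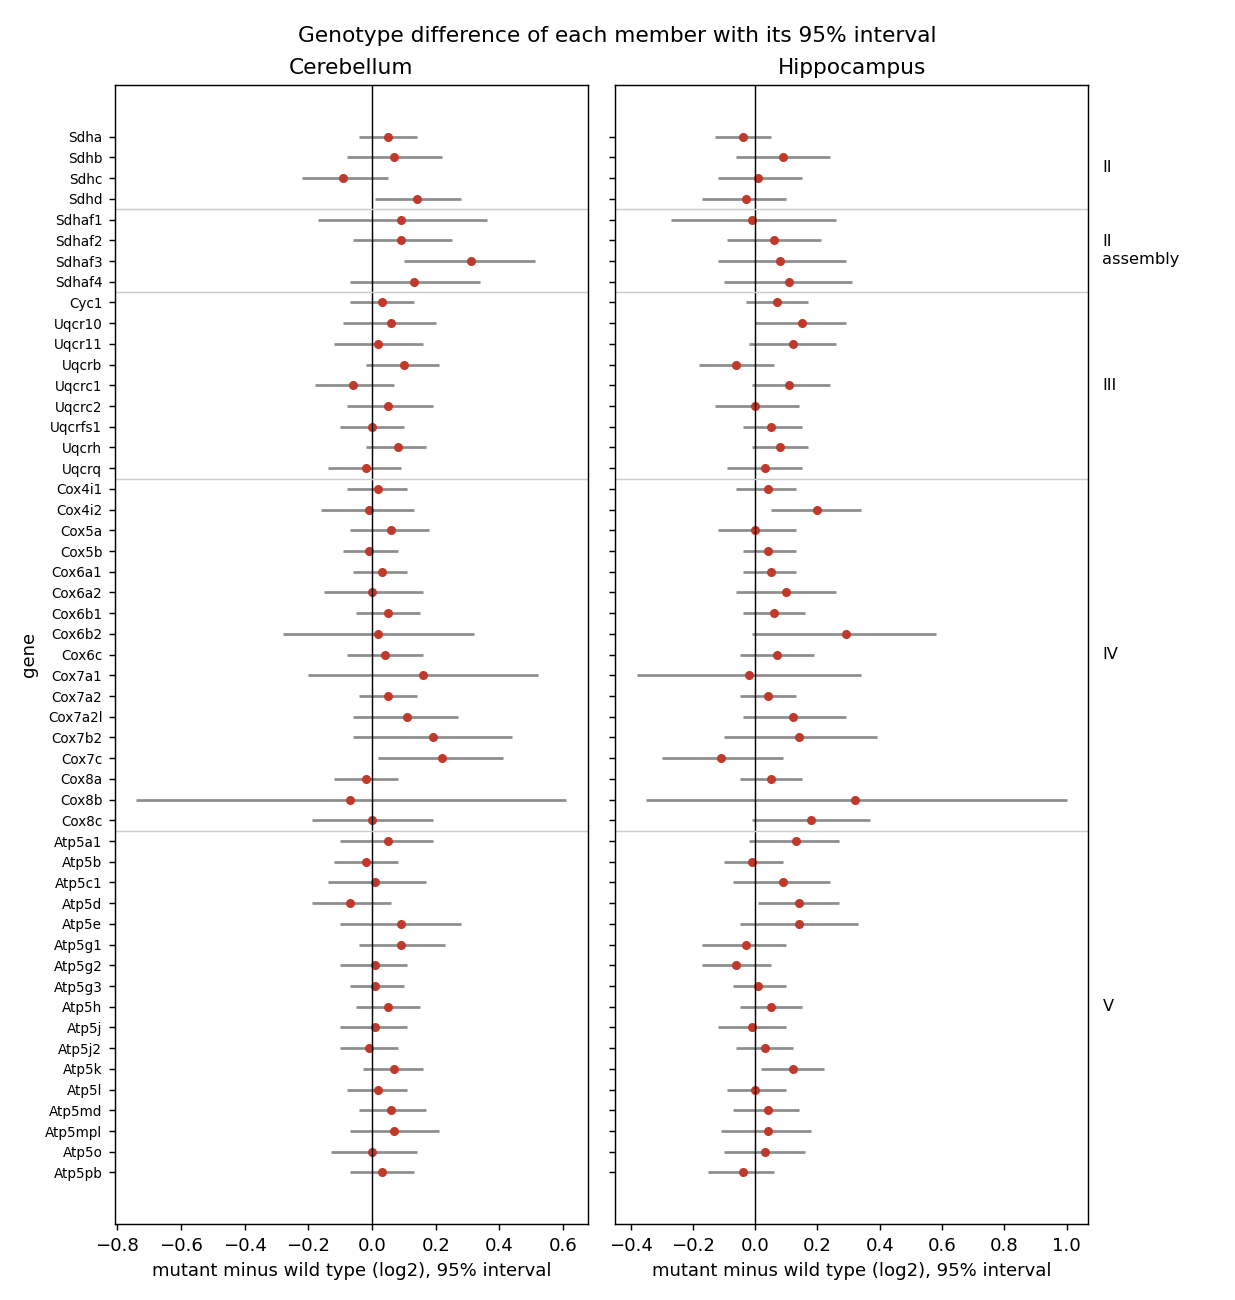
Difference between mutant and wild type (log2, horizontal axis) for each of the 51 genes with its 95% interval, cerebellum on the left and hippocampus on the right, with separate axis ranges. Points lie mostly to the right of 0, intervals of nearly all genes cross it, and the widest intervals are those of Cox8b, Cox7a1, Cox6b2 and Sdhaf1.

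At an unadjusted p below 0.05, 3 of the 51 genes were higher in mutant cerebellum, Sdhd, Sdhaf3 and Cox7c, against 3.15% of all genes, and 0 were lower, against 2.24%. In the hippocampus 4 were higher, Uqcr10, Cox4i2, Atp5d and Atp5k, against 5.28%, and 0 were lower, against 2.75%. Counts this small lie near what the shares of all genes would give. Sdhaf3 was the only 1 of the 51 whose 4 mutant cerebellum arrays all lay above the 4 wild-type arrays, against 1.44% of all genes, and 0 lay wholly below, against 1.02%. In the hippocampus 5 lay wholly above, Uqcrh, Cox4i2, Cox6a1, Cox8c and Atp5k, against 3.24%, and 0 wholly below, against 1.52%. The count at an unadjusted p below 0.05 was 0 in the cerebellum without mutant replicates 2 and 4. Over all 18168 genes it was 587 there, against 979 with all arrays. In the hippocampus it was 0 of the 51 without the 2 arrays with raised choroid plexus markers. Over all genes it was 1054 there, against 1459 with all arrays.

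Complex II is built from the flavoprotein Sdha, which oxidises succinate, the iron-sulfur protein Sdhb and the membrane anchors Sdhc and Sdhd. Its 4 genes had a median difference of 0.057 in the cerebellum and of -0.011 in the hippocampus, where 2 of 4 were above 0. Sdhd stood at 0.00, 0.11, 0.01 and 0.14 on the 4 mutant cerebellum arrays and at 0.08, -0.15, -0.22 and -0.02 on the wild-type arrays. The groups overlapped, and wild-type replicates 2 and 3 were the low ones. The difference was 0.14 (SE 0.06; limma unadjusted p = 0.0364, adjusted p = 0.884). In the hippocampus Sdhd differed by -0.03. Sdhb, at 0.04, -0.01, -0.02 and 0.22 in mutant hippocampus and 0.05, -0.06, -0.11 and 0.01 in wild type, had the smallest p of the complex there, with a difference of 0.09 (SE 0.07; limma adjusted p = 0.767). The groups overlapped, and mutant replicate 4 alone lay high. Without that array the Sdhb difference was 0.03. Sdha differed by 0.05 in the cerebellum and -0.04 in the hippocampus, and Sdhc by -0.09 and 0.01.

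The values of the complex II assembly genes ranged wider than those of its subunits. Sdhaf1 and Sdhaf3 help the iron-sulfur clusters into Sdhb, Sdhaf2 attaches the flavin to Sdha, and Sdhaf4 assists the joining of Sdha with Sdhb. All 4 were above 0 in the cerebellum, with a median of 0.114, and 3 of 4 in the hippocampus, with a median of 0.073. The cerebellum median was 0.06 without mutant replicate 2, 0.19 without mutant replicate 3 and 0.02 without mutant replicates 2 and 4. The hippocampus median was 0.03 when wild-type replicate 1 was left out, and leaving out both arrays high in choroid plexus markers gave 0.00. Sdhaf3 stood at 0.01, 0.48, 0.01 and 0.17 on mutant cerebellum arrays and at -0.04, -0.17, -0.01 and -0.35 on wild-type arrays. The groups did not overlap, but the nearest arrays were 0.01 and -0.01. The means were 0.16 ± 0.22 and -0.14 ± 0.15, and the difference of 0.31 (SE 0.10) was the largest of the 51 genes in the cerebellum (limma unadjusted p = 0.00581, adjusted p = 0.884). Both of its probe sets gave a difference there, 0.28 and 0.33. It was 0.20 without mutant replicate 2 and 0.15 without mutant replicates 2 and 4, the arrays on which spike-ins added to the RNA also stood apart, as described below. In the hippocampus Sdhaf3 differed by 0.08. Sdhaf4 stood at 0.09, 0.33, -0.02 and 0.02 in mutant cerebellum and 0.21, -0.18, -0.12 and -0.02 in wild type, which overlapped, for a difference of 0.13. Sdhaf1 and Sdhaf2 each differed by 0.09 in the cerebellum and by -0.01 and 0.06 in the hippocampus. Sdhaf1 ranged from -0.45 on wild-type cerebellum replicate 2 to 0.33 on mutant cerebellum replicate 4, so its arrays spread far wider than its groups differed.

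Complex III carries its electrons through cytochrome c1, encoded by Cyc1, and the Rieske iron-sulfur protein, encoded by Uqcrfs1. Uqcrc1 and Uqcrc2 encode its core proteins, Uqcrh encodes the hinge protein beside cytochrome c1, and Uqcrb, Uqcrq, Uqcr10 and Uqcr11 encode small subunits. In the cerebellum 6 of 9 genes were above 0, with a median of 0.028, and all 9 differences lay between -0.06 and 0.10. In the hippocampus 8 of 9 were above 0, with a median of 0.072 and a range of -0.06 to 0.15. Uqcr10 stood at -0.01, 0.09, 0.01 and 0.27 in mutant hippocampus and at -0.14, -0.07, -0.02 and 0.00 in wild type. Only mutant replicate 1 fell within the range of the wild types, and mutant replicate 4 was the high one. The difference was 0.15 (SE 0.07; limma unadjusted p = 0.0445, adjusted p = 0.605). It was 0.09 without mutant replicate 4 and 0.06 without the 2 arrays with raised choroid plexus markers; the part of those markers in the result was not tested. Uqcrh was steadier. It stood at 0.04, -0.01, 0.07 and 0.08 in mutant hippocampus, all above wild-type values of -0.02, -0.02, -0.08 and -0.01 before rounding, for a difference of 0.08 (limma adjusted p = 0.643). In the cerebellum Uqcrh also differed by 0.08, with overlapping groups. Uqcrb had the smallest p of the complex in the cerebellum, at 0.09, 0.05, -0.02 and 0.09 in mutants and -0.01, -0.09, 0.05 and -0.13 in wild types, for a difference of 0.10 (SE 0.06; limma adjusted p = 0.884). Its groups overlapped, and in the hippocampus it differed by -0.06. Of the others, Uqcr11 and Uqcrc1 differed most in the hippocampus, by 0.12 and 0.11, while Uqcrc1 was at -0.06 in the cerebellum. Cyc1 differed by 0.03 and 0.07, Uqcrfs1 by 0.00 and 0.05, Uqcrc2 by 0.05 and 0.00, and Uqcrq by -0.02 and 0.03, in cerebellum and hippocampus in that order.

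Complex IV, cytochrome c oxidase, has a catalytic core encoded by mitochondrial DNA, surrounded by nuclear subunits that stabilise and tune it. Several of these exist in a common form and in a form typical of muscle, lung or testis. In the cerebellum 12 of 17 genes were above 0, with a median of 0.026, and in the hippocampus 15 of 17, with a median of 0.056. Cox7c, a small subunit with no second form, stood at 0.22, 0.13, -0.08 and 0.23 in mutant cerebellum and at -0.14, -0.03, 0.03 and -0.22 in wild type. Mutant replicate 3 alone fell within the range of the wild types. The means were 0.13 ± 0.15 and -0.09 ± 0.11, and the difference was 0.22 (SE 0.09; limma unadjusted p = 0.0303, adjusted p = 0.884). In the hippocampus the order turned. Cox7c stood there at -0.05, -0.16, 0.09 and -0.03 in mutants and at 0.21, 0.23, -0.01 and -0.16 in wild types, so that the difference was -0.11 (SE 0.09; limma adjusted p = 0.781) with overlapping groups. The wild-type replicates 1 and 2, the older ones, were high. Cox7a2l, which encodes a factor that joins complexes III and IV into supercomplexes, differed by 0.11 in the cerebellum and 0.12 in the hippocampus. The other common subunits differed little in either region. In cerebellum and hippocampus the differences were 0.06 and 0.00 for Cox5a, which is part of the matrix side, -0.01 and 0.04 for Cox5b, which binds zinc, and 0.04 and 0.07 for Cox6c.

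The common forms and their tissue-restricted counterparts behaved differently in spread. Each pair was read side by side: Cox4i1 and Cox4i2 (lung), Cox6a1 and Cox6a2 (heart and muscle), Cox6b1 and Cox6b2 (testis), Cox7a2 and Cox7a1 (heart and muscle), and Cox8a with Cox8b (heart and muscle) or Cox8c (testis). Cox7b2, a testis form, was measured without a partner among these genes. The SD was taken over the 8 arrays of a region, both genotypes together. Its median was 0.197 in the cerebellum and 0.134 in the hippocampus for the 7 restricted forms. For the other 40 subunit genes it was 0.0675 and 0.0583, and for all genes 0.104 and 0.102. In this description, with no test, the common subunits were the steadiest of these sets. The number of probe sets was not matched, and a mean over several can scatter less. Cox4i2, Cox6b2, Cox7a1, Cox7b2 and Cox8b rest on 1 probe set each. Among common forms Cox4i1 also rests on 1, but Cox5a and Cox8a rest on 3 and Cox5b on 6. Atp5g3 had the smallest such SD of the 51 genes in the cerebellum (0.0175) and Sdhc in the hippocampus (0.0299). Cox8b had the widest spread in both regions, with an SD of 0.322 and of 0.634. It stood at 1.68 on mutant hippocampus replicate 4, the array with choroid plexus markers at 2.19, and between -0.24 and 0.33 on the other 7 hippocampus arrays. Whether restricted forms are expressed in these tissues at all cannot be read from relative values.

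**Figure D3:**
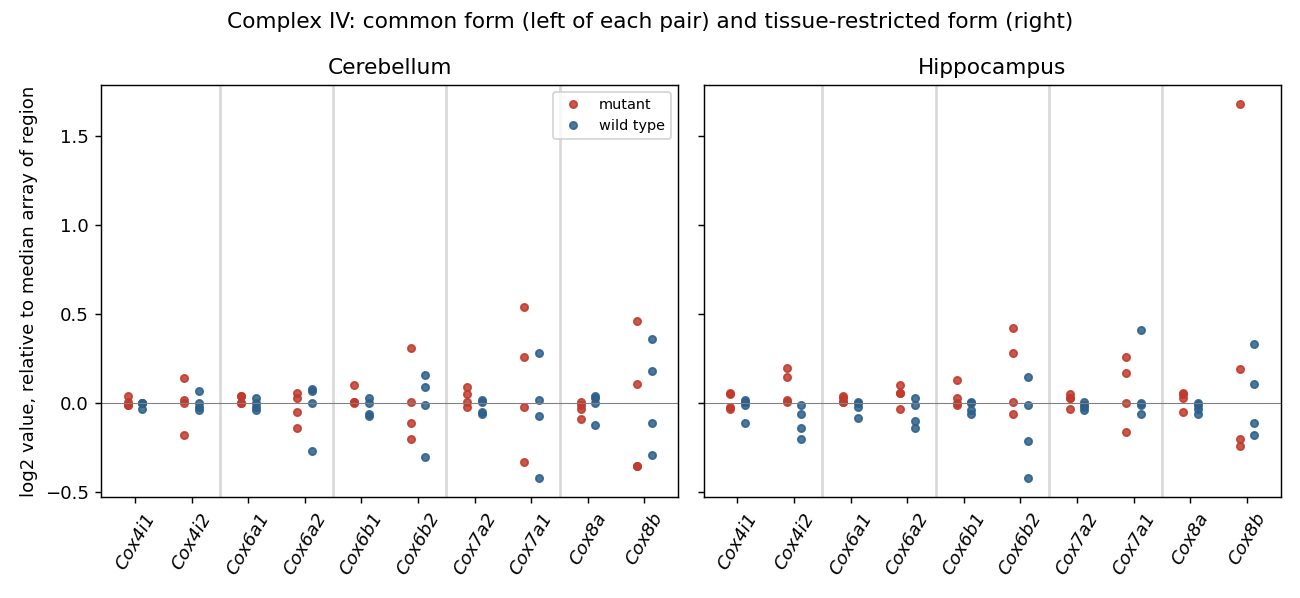
Log2 value relative to the median array of the region (vertical axis) for 5 pairs of complex IV subunit genes, common form on the left of each pair and tissue-restricted form on the right, with a point per array (red mutant, blue wild type), cerebellum in the left panel and hippocampus in the right. Points of the common forms bunch near 0 and those of the restricted forms scatter, most of all Cox8b, whose mutant hippocampus replicate 4 lies at 1.68.

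Among these forms Cox4i2 had the smallest p in the hippocampus. It stood at 0.02, 0.20, 0.01 and 0.15 in mutants and at -0.14, -0.06, -0.01 and -0.20 in wild types. The groups did not overlap, the nearest arrays being 0.01 and -0.01. The means were 0.09 ± 0.10 and -0.10 ± 0.09, and the difference was 0.20 (SE 0.07; limma unadjusted p = 0.0116, adjusted p = 0.507). It was 0.16 without the 2 arrays with raised choroid plexus markers and 0.26 when the 3 arrays high in granule neuron markers were left out. In the cerebellum Cox4i2 differed by -0.01. Its common partner Cox4i1 differed by 0.02 and 0.04 in the cerebellum and the hippocampus. Cox6a1 showed how small a separation could be: its mutant hippocampus arrays stood at 0.01, 0.03, 0.01 and 0.04 and its wild types at -0.02, 0.00, -0.08 and 0.01, apart only before rounding, for a difference of 0.05 (limma adjusted p = 0.780). Cox8c stood at 0.18, 0.03, 0.14 and 0.06 in mutant hippocampus, all above -0.06, -0.10, -0.12 and -0.02 in wild type, and differed by 0.18 there and by 0.00 in the cerebellum. Its 2 probe sets in the hippocampus gave 0.28 and 0.08. Cox7b2 differed by 0.19 in the cerebellum, where wild-type replicates 2 and 4 were at -0.59 and -0.34, and by 0.14 in the hippocampus. Cox6b2 differed by 0.02 in the cerebellum and 0.29 in the hippocampus, where its arrays ran from -0.42 to 0.42 and the groups overlapped. The remaining differences, for cerebellum and hippocampus, were 0.00 and 0.10 for Cox6a2, 0.05 and 0.06 for Cox6b1, 0.16 and -0.02 for Cox7a1, 0.05 and 0.04 for Cox7a2, -0.02 and 0.05 for Cox8a and -0.07 and 0.32 for Cox8b.

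Complex V consists of a catalytic head on a rotor and a membrane part through which protons pass. The head is encoded by Atp5a1 and Atp5b, which form the catalytic ring, and by Atp5c1, Atp5d and Atp5e, which form the central stalk. Atp5g1, Atp5g2 and Atp5g3 encode the same mature protein of the rotor ring. Atp5pb, Atp5h, Atp5j and Atp5o build the peripheral stalk that holds the head still, and Atp5j2, Atp5k, Atp5l, Atp5md and Atp5mpl encode small membrane subunits, among which Atp5k and Atp5l help the enzyme to form dimers. In the cerebellum 14 of 17 genes were above 0, with a median of 0.018, and all 17 differences lay between -0.07 and 0.09. In the hippocampus 12 of 17 were above 0, with a median of 0.031 and a range of -0.06 to 0.14. No gene of the complex thus differed by more than 0.14 in either region. Atp5k stood at 0.04, 0.03, 0.05 and 0.12 in mutant hippocampus and at -0.08, -0.06, -0.04 and -0.05 in wild type. The groups lay clear of each other, and no single array set the difference of 0.12 (SE 0.05; limma unadjusted p = 0.0181, adjusted p = 0.540), which stayed between 0.10 and 0.13 with any 1 hippocampus array left out. In the cerebellum Atp5k stood at -0.02, 0.10, 0.03 and 0.02 in mutants and 0.00, -0.12, 0.01 and -0.02 in wild types, with overlapping groups. Its difference there, 0.07 (SE 0.05; limma adjusted p = 0.896), had the smallest p of the complex. Its 3 probe sets gave 0.14, 0.06 and 0.16 in the hippocampus.

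Atp5d was the other gene of complex V below an unadjusted p of 0.05. It stood at 0.00, 0.00, 0.03 and 0.18 in mutant hippocampus and at -0.12, -0.12, -0.13 and 0.02 in wild type. Wild-type replicate 4 alone fell within the range of the mutants. The difference was 0.14 (SE 0.06; limma unadjusted p = 0.0345, adjusted p = 0.595), and it was 0.08 without the 2 arrays with raised choroid plexus markers. In the cerebellum Atp5d differed by -0.07. In the head, the differences in cerebellum and hippocampus were 0.05 and 0.13 for Atp5a1, -0.02 and -0.01 for Atp5b, 0.01 and 0.09 for Atp5c1 and 0.09 and 0.14 for Atp5e. In the rotor ring they were 0.09 and -0.03 for Atp5g1, 0.01 and -0.06 for Atp5g2 and 0.01 and 0.01 for Atp5g3. The genes of the peripheral stalk hardly differed, with Atp5pb at 0.03 and -0.04, Atp5h at 0.05 and 0.05, Atp5j at 0.01 and -0.01 and Atp5o at 0.00 and 0.03. Of the membrane subunits, Atp5j2 differed by -0.01 and 0.03, Atp5l by 0.02 and 0.00, Atp5md by 0.06 and 0.04 and Atp5mpl by 0.07 and 0.04.

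**Figure D4:**
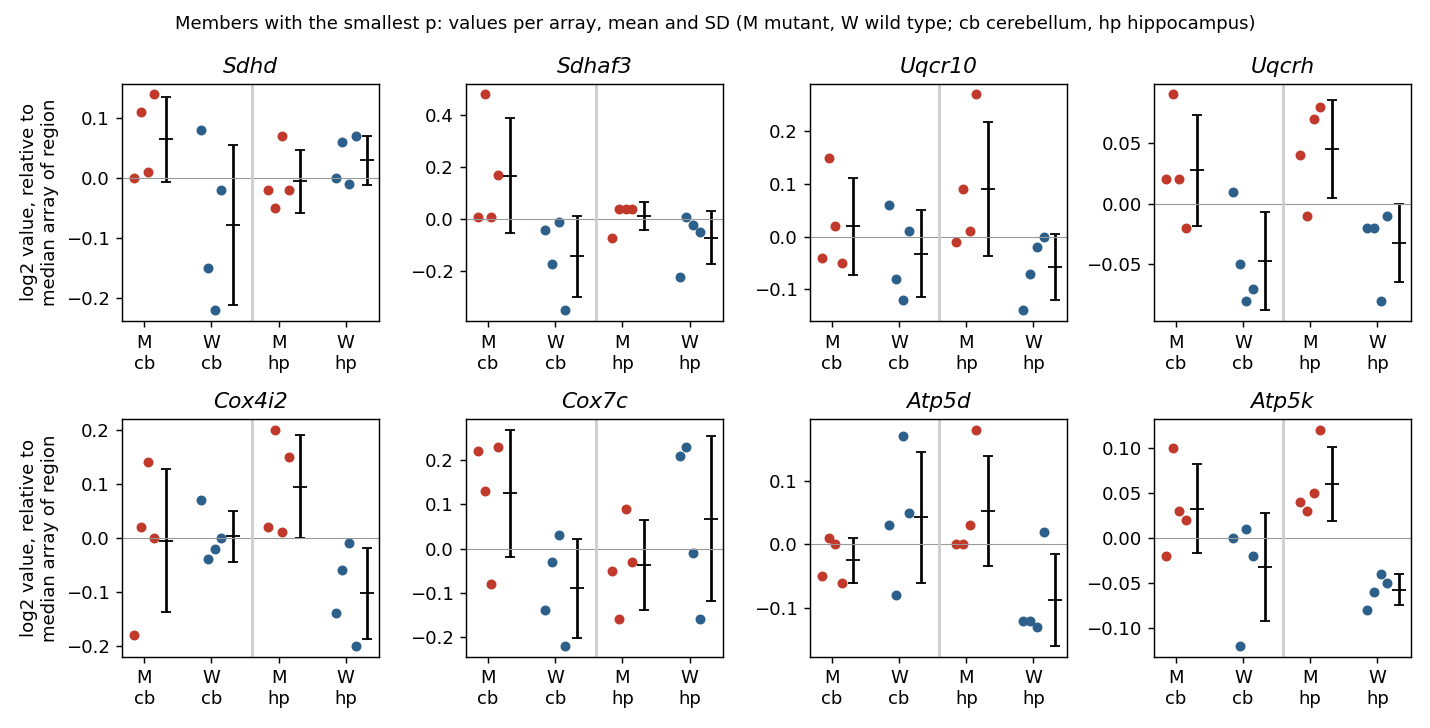
Log2 value relative to the median array of the region for 8 genes, with a point per array and the mean and SD of each group beside it (M mutant, red; W wild type, blue; cb cerebellum, hp hippocampus; vertical ranges differ between panels). The groups are apart for Sdhaf3 in the cerebellum and for Uqcrh, Cox4i2 and Atp5k in the hippocampus and overlap in the other panels, and Cox7c lies on opposite sides in the 2 regions.

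The difference between the regions was tested as such. No gene passed, and 3 of the 51 had an unadjusted p below 0.05, against 5.35% of all genes. Cox7c had the smallest p of them, with a hippocampus difference below that of the cerebellum by -0.32 (SE 0.13; limma unadjusted p = 0.024, adjusted p = 0.867). For Cox4i2 the difference between regions was 0.21 (SE 0.10; limma adjusted p = 0.867) and for Atp5d 0.20 (SE 0.08; limma adjusted p = 0.867). Without mutant cerebellum replicates 2 and 4, or without the 2 hippocampus arrays with raised choroid plexus markers, the count was 0. Over all genes it was 538 and 958 in these settings, against 972 with all arrays.

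Averaged over both regions, with 1 value per genotype and replicate number, 46 of the 51 genes were above 0 (90.2%), with a median of 0.05, against 58.7% of all genes and a median of 0.014. These included all 17 genes of complex IV, all 9 of complex III, all 4 assembly genes, 13 of 17 genes of complex V and 3 of 4 of complex II. The 5 at or below 0 were Sdhc, Atp5b, Atp5g2, Atp5j and Atp5pb. At an unadjusted p below 0.05, 7 genes were higher, against 5.6% of all genes, and 0 were lower, against 2.91%. The differences were 0.19 (SE 0.07) for Sdhaf3, 0.12 (SE 0.05) for Sdhaf4, 0.10 (SE 0.04) for Uqcr10, 0.08 (SE 0.03) for Uqcrh, 0.11 (SE 0.04) for Cox7a2l, 0.17 (SE 0.07) for Cox7b2 and 0.09 (SE 0.04) for Atp5k. Their limma adjusted p ranged from 0.542 for Sdhaf3 to 0.581 for Uqcrh and Cox7b2. Of these 7, Sdhaf4, Uqcrh and Atp5k had all 4 mutant averages above all 4 wild-type averages. The 7 were picked by p on these same averages, which favours such a separation in advance. Cox6a1, outside the 7, was apart as well, with a difference of 0.04 (limma unadjusted p = 0.287). The share of all genes with such averages was not taken, so this separation cannot be set beside it. Leaving out mutant cerebellum replicates 2 and 4 also removed the mutant hippocampus replicates 2 and 4 here, since an average needs both regions. Then 42 of 51 were above 0, with a median of 0.021, and 0 had an unadjusted p below 0.05. Over all 18168 genes 920 had one, against 1546 with all arrays.

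The number of genes above 0 differed widely between arrays. On mutant cerebellum replicate 2, 42 of 51 genes lay above the median array, and on wild-type cerebellum replicate 2 only 7 did, with a median of -0.066. Wild-type cerebellum replicate 1, by contrast, had 37 above 0, more than mutant replicates 1, 3 and 4 with 21, 27 and 33. Genotype therefore did not order the cerebellum arrays. In the hippocampus mutant replicates 3 and 4 had 40 and 43 genes above 0 and mutant replicates 1 and 2 had 24 and 25, while the wild types had 16 to 22. All 4 mutant arrays there lay above all 4 wild-type arrays in this count. Markers of 3 other tissues also split the hippocampus genotypes without overlap. Ependymal markers, 6 of 6 of them with a difference above 0, averaged -0.03 to 0.53 on mutant arrays and -0.34 to -0.04 on wild-type arrays. Markers of meninges and fibroblasts, again 6 of 6, averaged 0.06 to 0.77 and -0.27 to -0.03. Of the 3 measured blood markers, 1, Hba-a1, had a difference above 0 in the hippocampus, and 0 had one in the cerebellum. Together they averaged -0.38 to -0.08 on mutant and 0.09 to 0.82 on wild-type hippocampus arrays. In the cerebellum they averaged -0.17 to -0.10 and 0.06 to 0.46. The part of these tissues in the counts was not tested. The poly-A spike-ins, bacterial RNAs added before labelling, stood at 0.62 and 0.65 on mutant cerebellum replicates 2 and 4 and between -0.22 and 0.05 on the other 6 cerebellum arrays, the lowest being wild-type replicate 2. The hybridization spike-ins, a separate set of controls, stood at -0.72 on wild-type cerebellum replicate 4 and at 0.27 on wild-type cerebellum replicate 3. On the other 6 cerebellum arrays they lay between -0.11 and 0.12. The part of either set of spike-ins in the counts was not tested, nor was that of the cerebellum marker shifts given above. Mutant hippocampus replicate 4, with the most genes above 0, had the choroid plexus markers at 2.19. Over these markers mutant hippocampus arrays ranged from -0.57 to 2.19 and wild types from -0.53 to 0.98. Without that array and wild-type replicate 1, 37 of 51 genes were above 0 with a median of 0.025. When the 3 arrays high in granule neuron markers were left out, 39 of 51 were, with a median of 0.062. In bulk tissue, a different share of a cell type and a different amount of RNA per cell cannot be told apart.

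**Figure D5:**
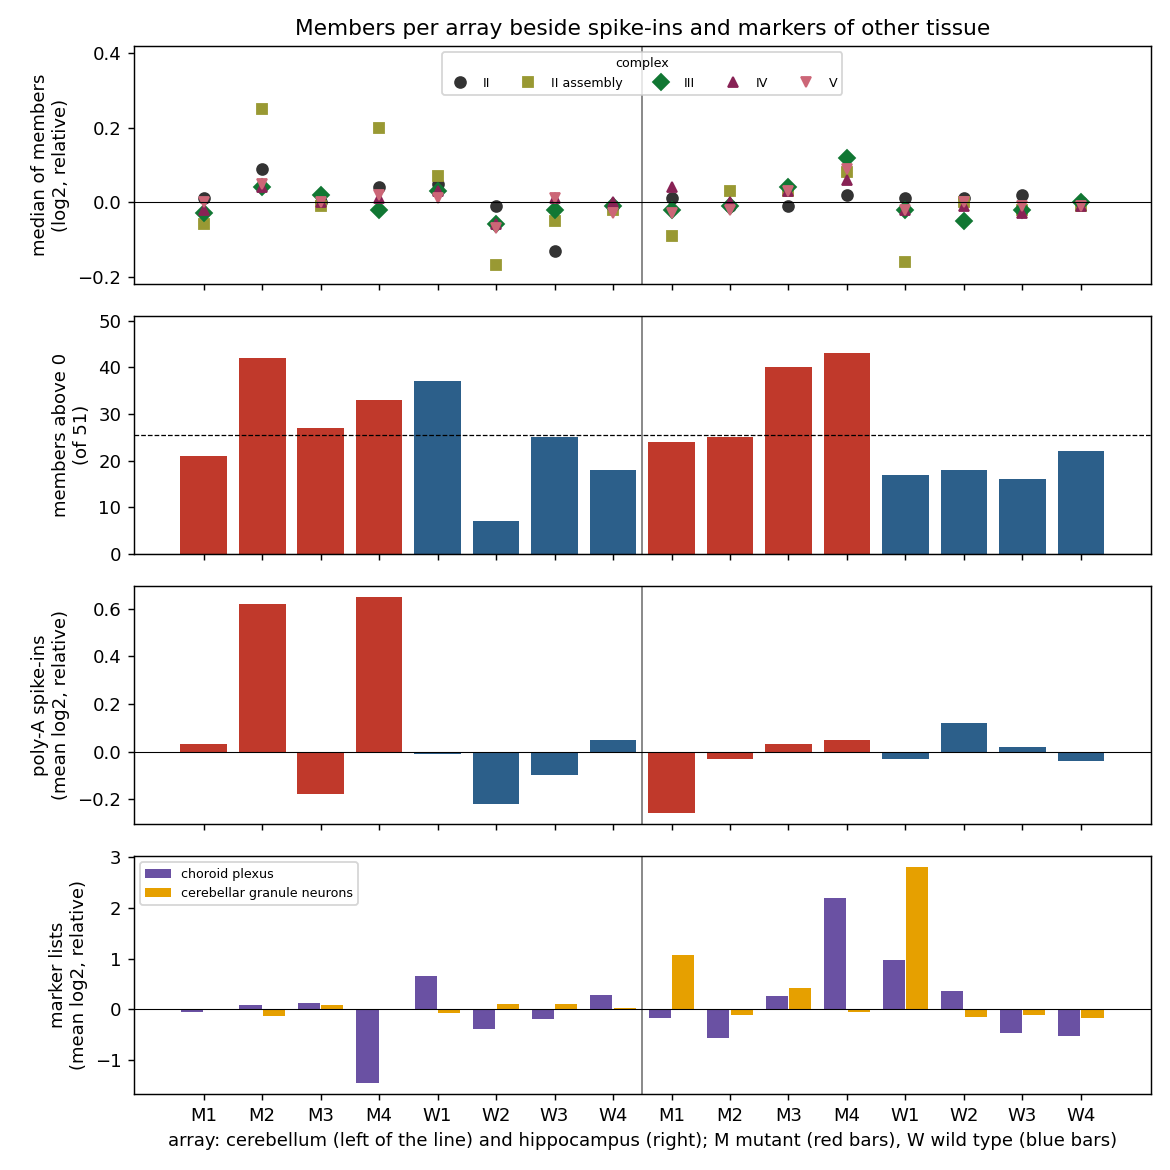
Per array, from top to bottom: the median log2 value of each complex, the number of the 51 genes above 0 (dashed line at the midpoint), the mean of the poly-A spike-ins, and the means of the choroid plexus and cerebellar granule neuron markers. Mutant cerebellum replicate 2 has 42 genes above 0 and raised spike-ins, wild-type cerebellum replicate 2 has 7, and mutant hippocampus replicate 4 has 43 and raised choroid plexus markers.

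The ages allow the comparison to be read within 2 pairs of arrays per genotype, the older pair at 24 to 26 months and the younger at 21 to 23 months. Age pairs and replicate numbers coincide, so the 2 cannot be told apart, and with 2 arrays a side no test was made. In the cerebellum 37 of 51 genes were above 0 in the older pairs and 37 in the younger, with medians of 0.045 and 0.03. In the hippocampus 32 of 51 were above 0 in the older pairs, with a median of 0.03 beside 0.029 for all genes, and 46 of 51 in the younger pairs, with a median of 0.073 beside 0.012. The younger hippocampus pairs include mutant replicates 3 and 4, the arrays with the most genes above 0. Atp5k differed by 0.11 in the older and 0.13 in the younger hippocampus pairs, and Cox4i2 by 0.20 and 0.19. Sdhaf3 differed by 0.35 and 0.27 in the cerebellum. Cox7c differed by -0.32 in the older hippocampus pairs and by 0.11 in the younger.

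The value of a gene is a mean over its probe sets, which did not always match. Of the 31 genes with several probe sets, 11 had differences of opposite sign in the cerebellum and 11 in the hippocampus. Sdha had the widest gap in the hippocampus, 0.31, with probe sets at 0.02, 0.03, 0.06 and -0.25, and Atp5a1 the widest in the cerebellum, 0.21. For 45 of the 98 probe sets the name carries the suffix _s_at, _x_at or _a_at, and 9 genes rest on such probe sets alone. These suffixes mark probes shared among transcripts, which can be those of the same gene or of others. Whether any of these probe sets also took up signal from a related gene or from processed copies of Cox and Atp5 genes was not tested.

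The rest of the respiratory machinery was read from a list of 39 other measured genes: cytochrome c, Ndufa4 and the assembly factors of complexes III, IV and V. None had a limma adjusted p below 0.05. In the cerebellum 35 of 39 were above 0, with a median of 0.07, and in the hippocampus 26 of 39, with a median of 0.04. For the assembly factors of complex IV the counts were 21 and 16 of 23. In the cerebellum 3 genes had an unadjusted p below 0.05 and were higher, against 3.15% of all genes, and in the hippocampus 2, against 5.28%; 0 were lower in either. Cox17, which carries copper to complex IV, differed in both. It stood at 0.01, 0.02, 0.13 and 0.03 in mutant hippocampus and at -0.11, -0.07, -0.11 and -0.12 in wild type, with no overlap, for a difference of 0.15 (SE 0.05; limma unadjusted p = 0.00689, adjusted p = 0.494). In the cerebellum it differed by 0.11 (SE 0.05; limma adjusted p = 0.884) with overlapping groups. Its average over the regions was 0.13 (SE 0.03; limma adjusted p = 0.524). Cox11, which inserts copper into complex IV, differed by 0.12 in the cerebellum and -0.02 in the hippocampus. Cycs, somatic cytochrome c, differed by 0.13 and -0.06, and Cmc2, a further complex IV factor, by 0.03 and 0.10.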

How the data were processed

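Per the labels' protocols, total RNA was isolated with Trizol, and biotin-labelled cRNA for Affymetrix arrays was made from 5 ug. The submitters' processing notes name GCOS 4.0. The deposited values are on a log scale taken as log2, relative, each probe set having its median over the 8 arrays of a region at 0. Not given in the sources used here were the log base, the normalization and the probe-level summary. If the base were e, differences would have to be multiplied by 1.44. Of 45101 probe sets, 64 controls and 133 with an empty value were left out. Probe sets with 1 symbol were averaged per gene, which gave 18168 genes. No filter on low values was possible without levels.

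limma 3.58.1 in R 4.3.3 (lmFit and eBayes) took all 16 arrays together, each group having its own mean (12 residual degrees of freedom), and the average over regions took 8 values (6 degrees). Tests were two-sided, adjusted by Benjamini-Hochberg across all genes, with 0.05 as the threshold. Precision is limited by the number of arrays, and the median SE over all genes was 0.0741 in each region. The fit was tested on simulated data. Full statistics are given for genes with an unadjusted p below 0.05 in any comparison and for the smallest p of each complex and region, and the values of the other genes without a test. The genes, the marker lists and the list of other respiratory genes were chosen with earlier results of these data known. Alternatives covered scaling, probe sets, variance, age, replicate block and left-out arrays. Promoter stretches and gene identifiers came from RefSeq, and all 51 genes matched by identifier.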

Additional observations from a re-analysis of the deposited data

Results flagged for a closer look

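Of 224 groups of 4 arrays checked, 12 had an array set apart from the other 3 by a gap beyond Dixon's 95% critical value for the group's range, where chance gives about 1 in 20. Among wild-type cerebellum arrays these were Sdhaf1 at -0.45 and Cox4i1 at -0.03 on replicate 2, Atp5g2 at 0.13 on replicate 1 and Cox8c at -0.38 on replicate 3. Among mutant cerebellum arrays they were Atp5a1 at 0.27 on replicate 4 and Cox6b1 at 0.10 on replicate 2. Among wild-type hippocampus arrays, replicate 1 held 3 of them, Cox7a1 at 0.41, Sdhaf4 at -0.32 and the median of the complex II assembly genes at -0.16. Uqcrh at -0.08 on wild-type hippocampus replicate 3, Atp5d at 0.02 on wild-type hippocampus replicate 4 and Sdhaf3 at -0.07 on mutant hippocampus replicate 1 complete the count.

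Outside the measured genes, the poly-A spike-in probe sets stood at 0.62 on mutant cerebellum replicate 2 and at 0.65 on mutant cerebellum replicate 4, above all 4 wild-type cerebellum arrays.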

How the results depend on the processing

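None of the 51 genes had a limma adjusted p below 0.05 in any comparison refitted with gene values under another setting (42 of them were measured by probe sets without suffix). With each probe set on its own, 0 of their 98 probe sets did in any comparison. Among settings with gene values, the 20 differences of single genes singled out by their p had the same sign in every setting run. They were picked from these same arrays, and several settings leave a difference unchanged, so a kept sign was largely fixed in advance. Over all genes the hippocampus count of 0 became 2 with quantile normalization, with probe sets without suffix and with robust variance, and 1 without the 2 arrays with raised choroid plexus markers. With 1 array left out it ranged from 0 to 7 in the hippocampus, highest without wild-type replicate 2, and from 0 to 1 between regions, where it was also 1 without the 2 choroid plexus arrays. The average gave 1 with each probe set on its own. It also gave 1 without those 2 arrays, a setting that removed the same-numbered cerebellum arrays from the average as well. The median difference of complex II in the hippocampus was -0.02 with quantile normalization, 0.04 with probe sets without suffix and -0.05 with the widest probe set, and ranged from -0.02 to 0.00 with 1 array left out. That of complex IV was 0.10 with the widest probe set and 0.04 without the 2 choroid plexus arrays. Between regions, complex II was -0.12 with the widest probe set and 0.01 when the 3 arrays high in granule neuron markers were left out. There complex IV ranged from 0.01 to 0.05 with 1 array left out, and the assembly genes were at 0.07 without mutant cerebellum replicates 2 and 4. The settings that leave out the choroid plexus or granule neuron arrays were chosen after seeing the data, and the cause of these shifts was not tested.

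Deviations of same-numbered mutant and wild-type arrays correlated between -0.19 and 0.05 in the cerebellum and between -0.07 and 0.23 in the hippocampus. In these regions 0 of 8 and 2 of 8 arrays correlated best with their own number. Between cerebellum and hippocampus of 1 number, deviations correlated between -0.17 and 0.13 in mutants and between -0.05 and 0.17 in wild types. Correlations over all genes cannot decide whether samples of a number share a mouse or a batch. With the replicate block 0 genes were called in any comparison, and 1, 2, 1 and 3 of the 51 had an unadjusted p below 0.05 in cerebellum, hippocampus, between regions and in the average. Of all 18168 genes, 962, 1345, 954 and 1577 had one, in the same order.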
